A study of Rattus norvegicus with 9 samples.

Results

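The 7 genes described here encode the machinery that presents peptides on major histocompatibility complex (MHC) class II molecules: the invariant chain *Cd74*, the chain genes *RT1-Da*, *RT1-Db1*, *RT1-Ba* and *RT1-Bb*, and the peptide exchange genes *RT1-DMa* and *RT1-DMb*. They were taken as all probe sets whose only gene symbol in the platform annotation is one of these names, which gave 21 of 8740 probe sets, weak ones included, and 7 of 4736 genes. The genes were chosen with earlier results of these arrays known, so their differences between ages, and the counts of calls among them, are given as a description and support nothing. The tissue was posterior cricoarytenoid, a muscle of the larynx that draws the vocal folds apart, from rats of 6, 18 and 30 months, with 3 oligonucleotide arrays for each age. RNA of 4 animals was combined for each array, and the error given below is therefore the spread between such pools. The labels name no treatment, and the sources used here give neither strain nor sex. The series takes 6 months as its baseline and asks how expression in this muscle shifts with age.

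Class II molecules are pairs of an α and a β chain that carry peptides from endosomes to the cell surface, where CD4+ T cells read them. The invariant chain blocks the groove of newly made pairs and guides them to the endosomes; after it is cut, its last fragment is removed by the DM molecule, which edits the peptides that stay. Macrophages, dendritic cells and B cells carry most class II in healthy tissue, and skeletal muscle fibres normally carry little of it. In a whole muscle, fewer cells of a type and less RNA per cell cannot be told apart. RT1-D is the rat counterpart of human HLA-DR, and RT1-B is that of HLA-DQ.

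In human and mouse, the promoters of class II genes share short boxes, and the coactivator CIITA works through the proteins bound there. RefSeq promoters of assembly GRCr8, each from 250 bases before to 50 after a gene's start, were at hand for 6 of the 7 genes. Windows of 65 bases are shown because the genes that follow are described as a group. They show which letters these promoters share and which they do not, apart from any expression value. Capitals mark the letters ATTGG on either strand (the core of the Y box, CCAAT when read on the other strand) and the letters GNNACNGAT on either strand (part of the X box); no capitals of both motifs overlap.
RT1-Da, chr20:4515321-4515385, plus strand: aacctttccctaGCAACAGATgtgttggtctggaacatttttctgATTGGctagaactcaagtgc
RT1-Db1, chr20:4560223-4560287, minus strand: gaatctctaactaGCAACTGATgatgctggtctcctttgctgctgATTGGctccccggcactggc
RT1-Bb, chr20:4604160-4604224, minus strand: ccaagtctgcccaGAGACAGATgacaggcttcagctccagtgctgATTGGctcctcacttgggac
RT1-DMa, chr20:4712380-4712444, minus strand: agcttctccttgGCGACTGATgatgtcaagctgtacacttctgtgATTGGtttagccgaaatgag
RT1-Ba, chr20:4576969-4577033, plus strand: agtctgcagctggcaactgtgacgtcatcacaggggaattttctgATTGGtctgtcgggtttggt
Cd74, chr18:56526972-56527036, plus strand: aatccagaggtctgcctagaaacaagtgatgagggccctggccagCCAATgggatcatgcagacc

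All 6 promoters held ATTGG, as did 37.5% of 33469 rat promoters of the same length. GNNACNGAT was present in 4 of the 6, against 7.83% of all promoters. In these 4 a match began 32 or 33 bases before ATTGG on the same strand, at 33 bases in *RT1-Da* and *RT1-DMa* and at 32 in *RT1-Db1* and *RT1-Bb*. Of all promoters 27, or 0.0807%, held both motifs in this order with starts 20 to 40 bases apart, and these 4 were among them. The longer motif was spelled after these promoters were read, so the shares describe them and test nothing. *RT1-Ba* and *Cd74* did not hold those exact letters in the windows searched, and in *Cd74* the Y box core lay on the opposite strand.

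The signals are those of the array software, an estimate of a probe set's brightness in arbitrary units, and levels of different probe sets are not set against each other. Differences between ages are differences of mean log2(signal + 32), a scale that understates changes of weak probe sets. The whole table was fitted with limma, with 1 mean per age and p-values adjusted by Benjamini and Hochberg. The fit took the 60% of probe sets with the highest mean log2, 5244 in number, at a cutoff of 6.60. Of the 21 class II probe sets, 15 passed this filter, with at least 1 for each gene. The probe set nearest above the cutoff was X14254cds_at of *Cd74*, at 6.62, and its 30-month values are what lifted it over. The nearest below were U31599_at of *RT1-DMb*, at 6.21, and X53054_at of *RT1-Db1*, at 6.20.

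The arrays had a trimmed mean of 500.87 to 500.97 and median signals of 104 to 125, and no 2 arrays held identical values. Muscle markers were strong on every array: the summed signal of the 7 of 9 listed genes on the array was 125557 to 143960 at 6 months, 145873 to 178314 at 18 months and 152450 to 167154 at 30 months. None of the 7 passed the limma threshold in any comparison. An unadjusted limma p under 0.05 was reached by 3, 2 and 0 at 30 against 6, 18 against 6 and 30 against 18 months. The shares of all tested probe sets were 12.9%, 8.62% and 3.20%. All 7 were higher at 30 and at 18 than at 6 months, beside 41.2% and 42.3% of all. At 30 against 18 months 4 were higher and 3 lower. Precision is limited by having only 3 pools of each age.

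*Cd74*, the invariant chain gene, read lowest at 18 months and highest at 30 months in the mean of all 4 of its probe sets. The strongest of them by mean log2, X13044_g_at, read 442.7, 285.3 and 236 in the pools of 6 months, 202.4, 309.7 and 258.2 in those of 18 months and 600, 501.5 and 380.7 in those of 30 months. The 30-month arrays lay above all 18-month arrays, while replicate 1 of 6 months lay inside the 30-month range. In X14254cds_at the values were 60.7, 60.9 and 43.7 on the 6-month arrays, 38.7, 37.1 and 42.6 on the 18-month arrays and 108, 139 and 120.3 on the 30-month arrays. Here the 3 ages did not overlap at all, with 18 months lowest and 30 months highest.

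The remaining *Cd74* probe sets had the same order of means with more overlap. X14254cds_g_at read 326.3, 247 and 106.6 on the 6-month arrays, 124.5, 113.1 and 164.8 on the 18-month arrays and 353.9, 380 and 296.7 on the 30-month arrays. X13044_at read 462.8, 217.4 and 220.4 in the pools of 6 months, 236.8, 257.1 and 299 in those of 18 months and 383.6, 349 and 413.9 in those of 30 months. At 6 months the spread between pools was wide, and replicate 1 was the highest or nearly the highest of its age in every *Cd74* probe set.

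**Figure D1:**
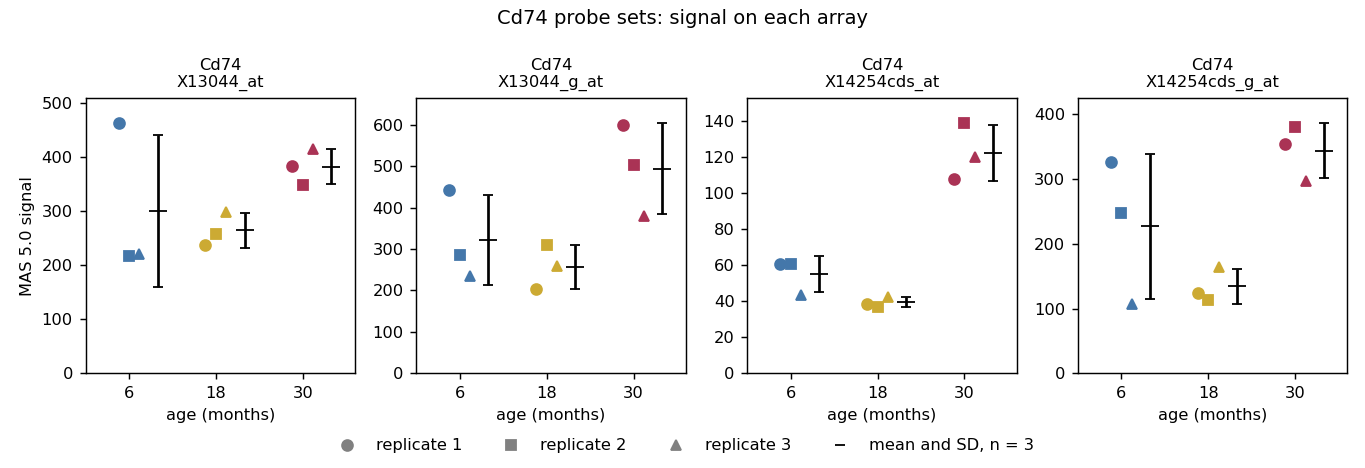
Signal of the 4 Cd74 probe sets (vertical axes, arbitrary units, from 0) at 6, 18 and 30 months (horizontal axes); each point is an array, its shape the replicate number, and the black bar is the mean with its SD over 3 arrays. In every panel the 3 arrays of 30 months lie above the 3 of 18 months, and in X13044_at replicate 1 of 6 months, at 462.8, is above them all.

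Of the 3 comparisons, *Cd74* differed most at 30 against 18 months. X14254cds_at averaged 122 ± 15.6 at 30 months and 39.5 ± 2.83 at 18 months (SD, n = 3 each), a ratio of 3.10 and a log2 difference of 1.11 with a standard error (SE) of 0.13. X14254cds_g_at averaged 343 ± 42.6 at 30 months and 134 ± 27.2 at 18 months (SD, n = 3 each), with a log2 difference of 1.18 (SE 0.30). In X13044_g_at and X13044_at the log2 differences were 0.86 and 0.49 (SE 0.24 each). By size of log2 difference X14254cds_g_at ranked 4, X14254cds_at 8, X13044_g_at 17 and X13044_at 97 from the top of 5244. Over all 9 arrays the 30-month arrays lay above the 18-month arrays in all 4 *Cd74* probe sets, which leaving an array out cannot change. With 1 array left out the mean log2 difference over the 4 was 0.85 to 0.97.

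Between 30 and 6 months the *Cd74* probe sets differed less, and the size turned on which 6-month pools were kept. X14254cds_at averaged 122 ± 15.6 at 30 months and 55.1 ± 9.87 at 6 months (SD, n = 3 each), a ratio of 2.22 and a log2 difference of 0.83 (SE 0.13). The other log2 differences were 0.64 (SE 0.30), 0.60 (SE 0.24) and 0.39 (SE 0.24), and in these the ages overlapped. The mean over the 4 probe sets was 0.61. Without replicate 1 of 6 months, all 4 had their 30-month arrays above their 6-month arrays, and the mean was 0.84. Without replicate 3 of 6 months the mean was 0.41, with 1 of the 4 apart. At 18 against 6 months the 4 log2 differences were -0.54 (SE 0.30), -0.28 (SE 0.13), -0.27 (SE 0.24) and -0.09 (SE 0.24), with a mean of -0.30. Without replicate 1 of 6 months that mean was -0.07, and without replicate 3 it was -0.50.

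The 4 chain genes, which encode the peptide-holding α and β chains, had another course: lower at 18 months, and at 30 months near their 6-month level. *RT1-Da*, the RT1-D α chain, read 1478.2, 1283.7 and 980 on the 6-month arrays, 1064.6, 690.8 and 566.1 on the 18-month arrays and 1310.7, 961.6 and 1099.4 on the 30-month arrays in M15562_g_at. Replicate 1 of 18 months overlapped both other ages there, and the other pools of 18 months were the lowest of all. Its means were 774 ± 259 at 18 months and 1247 ± 251 at 6 months (SD, n = 3 each), a log2 difference of -0.69 (SE 0.23), and the 30-month mean was 1124 ± 176. The other *RT1-Da* probe set, M15562_at, also read lowest on average at 18 months, with a log2 difference of -0.24 (SE 0.13) at 18 against 6 months.

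*RT1-Db1*, the RT1-D β chain, read 458.2, 332 and 325.8 on the 6-month arrays, 294.8, 229.2 and 323.9 on the 18-month arrays and 386, 290 and 398.3 on the 30-month arrays in X53054_g_at. The 18-month arrays lay below the 6-month arrays, by as little as 323.9 against 325.8, and overlapped the 30-month ones. The log2 difference was -0.36 (SE 0.18) at 18 against 6 months and 0.31 (SE 0.18) at 30 against 18 months. Its weak probe set X53054_at, under the filter, read 76.2, 75.2 and 28.8 in the pools of 6 months, 8.6, 10 and 13 in those of 18 months and 63.4, 66.8 and 88.3 in those of 30 months. In that probe set every 18-month array was below every other array, and the log2 difference was -1.07 (SE 0.22) at 18 against 6 months and 1.30 (SE 0.22) at 30 against 18 months.

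*RT1-Ba*, the RT1-B α chain, read 457.3, 536.6 and 408.9 on the 6-month arrays, 443.7, 351.9 and 342.9 on the 18-month arrays and 484.4, 494.3 and 407.2 on the 30-month arrays in K02815_s_at. Replicates 2 and 3 of 18 months were the lowest, and replicate 1 lay inside the range of both other ages. The log2 difference was -0.28 (SE 0.15) at 18 against 6 months, 0.27 (SE 0.15) at 30 against 18 months and -0.01 (SE 0.15) at 30 against 6 months. Its other probe sets disagreed with each other at 18 against 6 months, with -0.22 (SE 0.21) in X07551cds_s_at and 0.18 (SE 0.15) in M22366_at. In X07551cds_s_at replicate 1 of 30 months stood apart at 159.7, against 73.8 and 76 in the other pools of that age.

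*RT1-Bb*, the RT1-B β chain, read 319, 265.9 and 247.8 on the 6-month arrays, 230.1, 185.5 and 248.1 on the 18-month arrays and 297.1, 276.2 and 298.2 on the 30-month arrays in X56596_at. All 30-month arrays were above all 18-month arrays, while 18 and 6 months overlapped by 248.1 against 247.8. The log2 difference was -0.29 (SE 0.13) at 18 against 6 months, 0.36 (SE 0.13) at 30 against 18 months and 0.07 (SE 0.13) at 30 against 6 months. M36151cds_s_at also read lowest on average at 18 months, at 183 ± 46.5, against 228 ± 31.1 at 6 months (SD, n = 3 each). The other 3 *RT1-Bb* probe sets read 1.3 to 40.1 over all arrays and carry no usable order, although replicate 2 of 30 months read 40.1 in M15358cds_at, where the other arrays read 5.3 to 7.

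**Figure D2:**
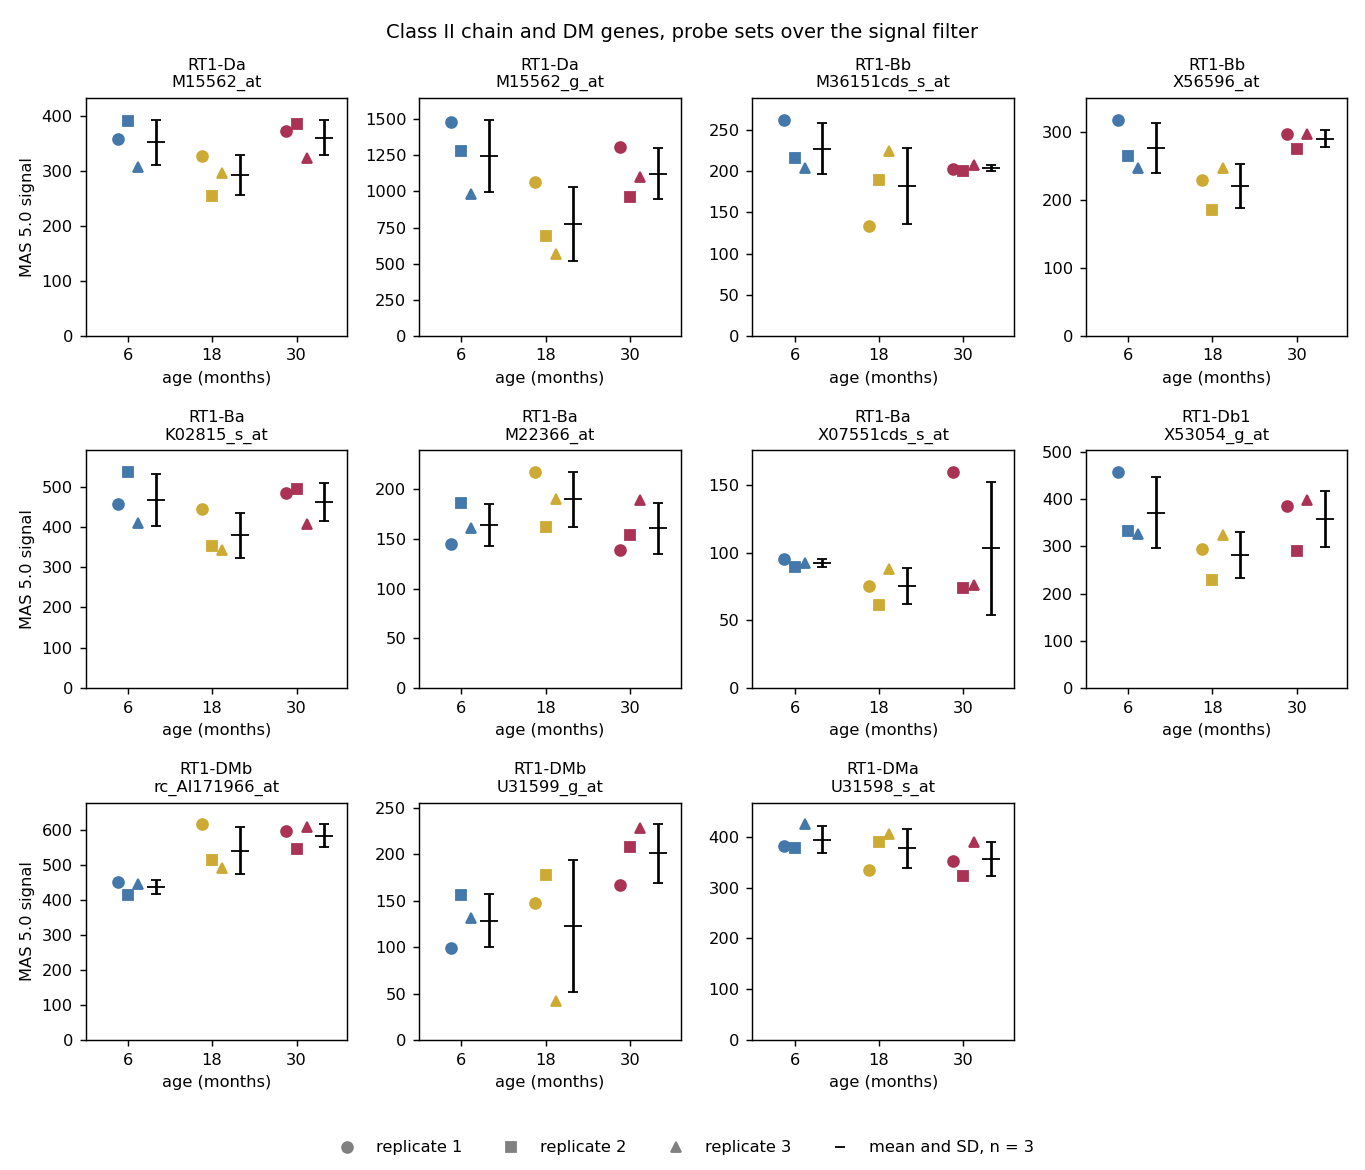
Signal (vertical axes, arbitrary units, from 0) at 6, 18 and 30 months of the 11 probe sets of chain and DM genes over the signal filter; each point is an array, its shape the replicate number, and the black bar is the mean with its SD over 3 arrays. The means of 18 months are lowest in 7 of the 8 chain probe sets, with M22366_at of RT1-Ba as the exception, whereas RT1-DMb rc_AI171966_at is lowest at 6 months.

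In the strongest probe set of each, the DM genes, whose product exchanges peptides on class II molecules, followed neither course. *RT1-DMb*, the DM β chain, read 451.3, 414.7 and 446.1 in the pools of 6 months, 615.6, 514.7 and 490.4 in those of 18 months and 595.8, 546.7 and 608.3 in those of 30 months in rc_AI171966_at. Both older ages lay above 6 months without overlap and overlapped each other. It averaged 584 ± 32.6 at 30 months and 437 ± 19.8 at 6 months (SD, n = 3 each), a log2 difference of 0.39 (SE 0.12), and 0.28 (SE 0.12) at 18 against 6 months. Another probe set, U31599_g_at, was also apart at 30 against 6 months, with 166.7, 207.9 and 228.7 at 30 months against 98.9, 156.3 and 131.4 at 6 months. At 18 months it spread from 42.4 to 178. Its means were 129, 123 and 201 at 6, 18 and 30 months, the order of means seen in *Cd74*. At 30 against 18 months its log2 difference was 0.71 (SE 0.34), with overlap of the ages. The weak U31599_at had a log2 difference of 0.49 at 30 against 6 months with an SE of 0.45.

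*RT1-DMa*, the DM α chain, read 380.8, 377.6 and 424.5 on the 6-month arrays, 334.2, 390.3 and 405.9 on the 18-month arrays and 352.3, 323.5 and 389.9 on the 30-month arrays in U31598_s_at. All ages overlapped, and the log2 difference at 30 against 6 months was -0.14 (SE 0.12). In the weak Z49761_at it was -0.06 (SE 0.15).

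**Figure D3:**
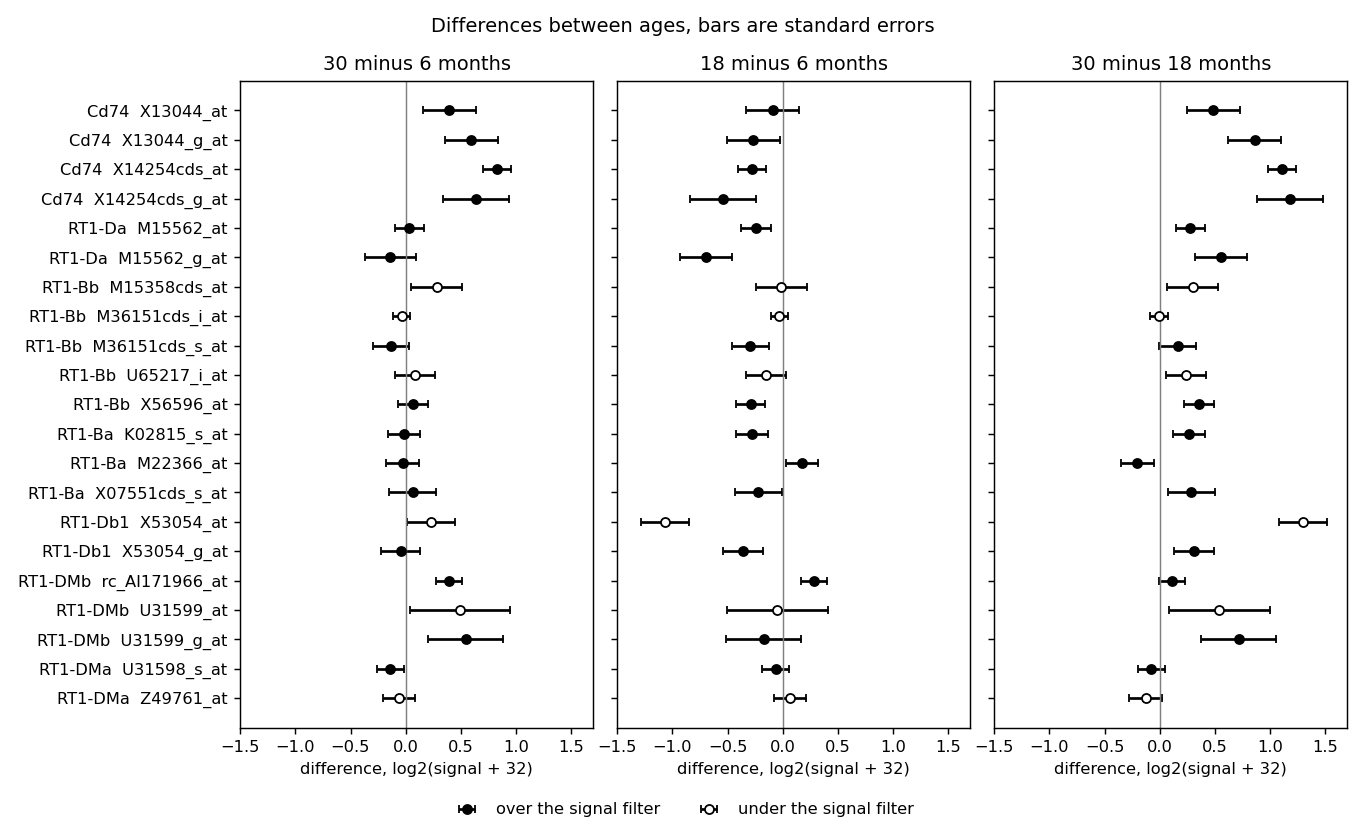
Differences of mean log2(signal + 32) between ages (horizontal axes) for the 21 class II probe sets (rows), with standard errors from limma as bars; filled points passed the signal filter and open points did not. The 4 Cd74 probe sets lie above 0 in both panels with 30 months, and most RT1 chain probe sets lie below 0 in the panel of 18 minus 6 months, M22366_at of RT1-Ba being the exception at 0.18.

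Of the 15 class II probe sets over the filter, 9 were higher at 30 than at 6 months, 13 were lower at 18 than at 6 months, and 13 were higher at 30 than at 18 months. Among all tested probe sets 41.2% were higher at 30 than at 6 months, 57.7% lower at 18 than at 6 months, and 45.9% higher at 30 than at 18 months. With the 6 weak probe sets included, the class II counts were 13, 18 and 17 of 21. With each gene represented by its strongest probe set, the median log2 difference of the 7 genes was -0.01 at 30 against 6 months, -0.28 at 18 against 6 months and 0.31 at 30 against 18 months, beside -0.05, -0.04 and -0.02 over all tested probe sets. With all probe sets of a gene averaged, the median at 18 against 6 months was -0.16. The comparisons share arrays: a low value at 18 months enters both comparisons with that age.

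In limma at 30 against 6 months, 1 of the 15 tested class II probe sets passed an adjusted p of 0.05, X14254cds_at of *Cd74*, which was higher, beside 0.324% of all tested probe sets (0.153% higher and 0.172% lower). At 30 against 18 months the same probe set passed, beside 0.0191% of all (0.0191% higher, 0% lower). X14254cds_at entered the fit through its high 30-month values and was chosen with these arrays known, so both calls are partly set by that choice. Without the filter the call at 30 against 6 months ended, while that at 30 against 18 months stayed. At 18 against 6 months 0 of 15 passed, beside 0.0763% of all (0.0381% higher and 0.0381% lower). An unadjusted p under 0.05 was reached by 3 of 15 at 30 against 6 months, beside 12.9% of all, 2 at 18 against 6 months, beside 8.62%, and 5 at 30 against 18 months, beside 3.20%. Arrays at 30 months lay above those at 18 months in 5 of 15 class II probe sets, the 4 of *Cd74* and X56596_at of *RT1-Bb*, beside 3.18% of all, and below them in 0 of 15, beside 4.18%. They lay above those at 6 months in 3 of 15, beside 7.40% of all, and below them in 0 of 15, beside 14.8%. Arrays at 18 months lay below those at 6 months in 3 of 15, beside 8.35% of all, and above them in 1 of 15, beside 5.32%. Since the genes were chosen from these arrays, nothing is read from these counts and shares.

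The X14254cds_at calls were lost under most left-out arrays. At 30 against 6 months, of 9 repeats with an array left out, 1 kept the call, the repeat without replicate 2 of 18 months. Its log2 difference ran from 0.73 to 0.90 over those repeats. Calls over the whole table at 30 against 6 months numbered 17 with all arrays. They fell to 3, 0 and 2 without a 6-month array and to 10, 0 and 0 without a 30-month array. Without an 18-month array they were 13, 20 and 15. At 30 against 18 months the X14254cds_at call was kept only without replicate 3 of 6 months. A fold rule in the manner of the submitters, asking for mean signals that differ by over 1.7 times and for ages that do not overlap, called 3 of 15 at 30 against 18 months, all of them *Cd74*, beside 0.629% of all. It called 1 of 15 at 30 against 6 months, beside 2.23%, and 0 of 15 at 18 against 6 months, beside 1.43%.

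Over the arrays, r of the representing probe sets was higher among the chain genes than between them and the DM genes. That difference was not tested. Between the representing probe sets of the 4 chain genes, Pearson's r over 9 arrays was 0.34 to 0.91 with a median of 0.68, and Spearman's rho had a median of 0.64. The highest values were 0.91 for the β chain genes *RT1-Db1* and *RT1-Bb* (rho 0.82) and 0.82 for the α chain genes *RT1-Da* and *RT1-Ba* (rho 0.60). After the mean of each age was subtracted, r was 0.92 for the β pair and 0.65 for the α pair, so these pairs also varied together between pools of an age. Over all 6 chain pairs the median then was 0.36. Without the 2 arrays farthest from the median of the class II mean, replicates 2 and 3 of 18 months, the chain pairs had a median of 0.50 and a range of -0.19 to 0.84, so part of the relation rests on those arrays. The points share their arrays and pools, and the chain genes are related in sequence; how far their probes read each other's transcripts was not tested. Class II chain genes also differ between rat haplotypes, and how well the probes match the alleles of these animals is unknown.

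In X13044_g_at, its representing probe set, *Cd74* had r of 0.40 to 0.61 with the chain genes over 9 arrays. It had 0.05 to 0.23 after the age means were subtracted, and 0.31 to 0.83 without the 2 farthest arrays. These ranges overlap those of the chain pairs. With the same chain probe sets within ages, r was 0.32 to 0.67 in X14254cds_g_at, 0.02 to 0.38 in X14254cds_at and -0.28 to 0.74 in X13044_at. The 4 *Cd74* probe sets had r of 0.64 to 0.87 with each other (rho 0.43 to 0.85), and 0.25 to 0.78 within ages. In the representing probe sets the DM genes had r of -0.58 to 0.24 with the other members and each other. After the age means were subtracted, r was -0.91 between *RT1-Ba* and *RT1-DMa* and 0.76 between *RT1-Da* and *RT1-DMb*. The DM genes thus did not vary with the chain genes in 1 direction. These values turned on the probe set. Within ages r was 0.39 between K02815_s_at of *RT1-Ba* and the weak Z49761_at of *RT1-DMa*. It was 0.33 between M15562_g_at of *RT1-Da* and U31599_g_at of *RT1-DMb*, and 0.07 between M15562_at and rc_AI171966_at of the same genes. Over 9 arrays the 2 *RT1-DMa* probe sets had r of -0.29 with each other, and the 2 of *RT1-Da* had 0.74. The mean over the chain genes was 0.33 for replicate 1 of 6 months and 0.22 for replicate 1 of 30 months, the highest of all arrays, and -0.43 for replicate 2 of 18 months, the lowest. The mean over the *Cd74* probe sets was 0.40 to 0.56 on the 30-month arrays, and its r with the chain mean was 0.63 (rho 0.60, 0.49 within ages, 0.55 without the 2 farthest arrays).

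**Figure D4:**
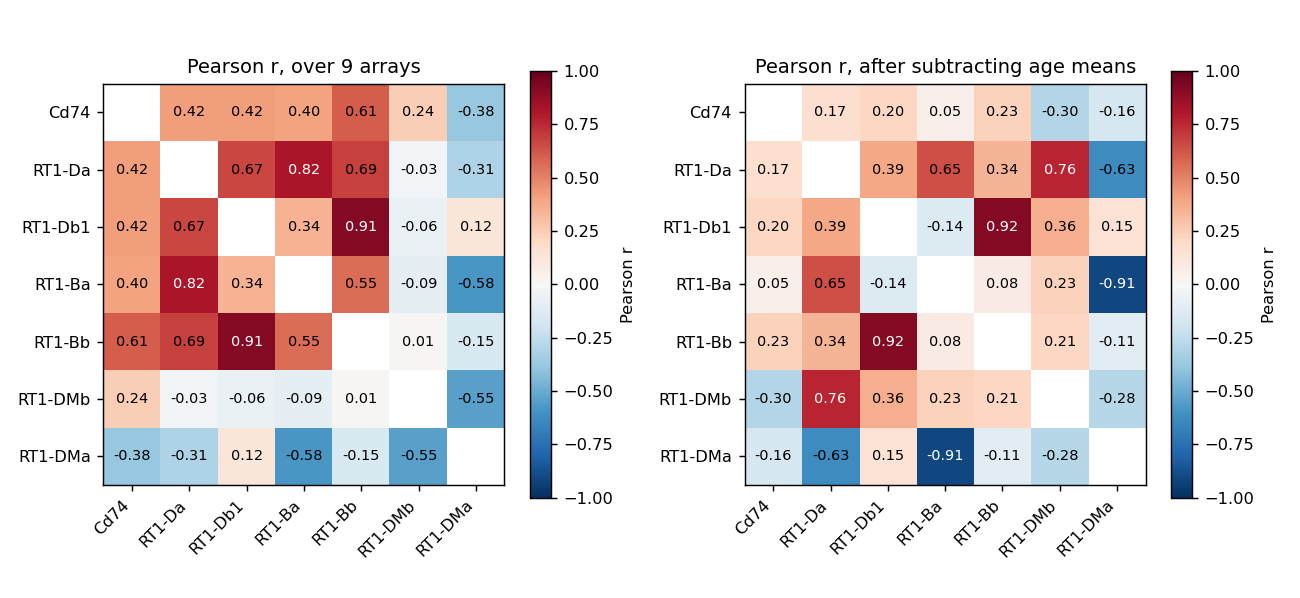
Pearson correlation between the strongest probe sets of the 7 genes, over 9 arrays (left) and after the mean of each age was subtracted (right), with red for positive and blue for negative r. RT1-Db1 and RT1-Bb reach 0.91 and 0.92, and the row of RT1-DMa is mostly negative, with 0.12 and 0.15 for RT1-Db1 as its positive values.

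**Figure D5:**
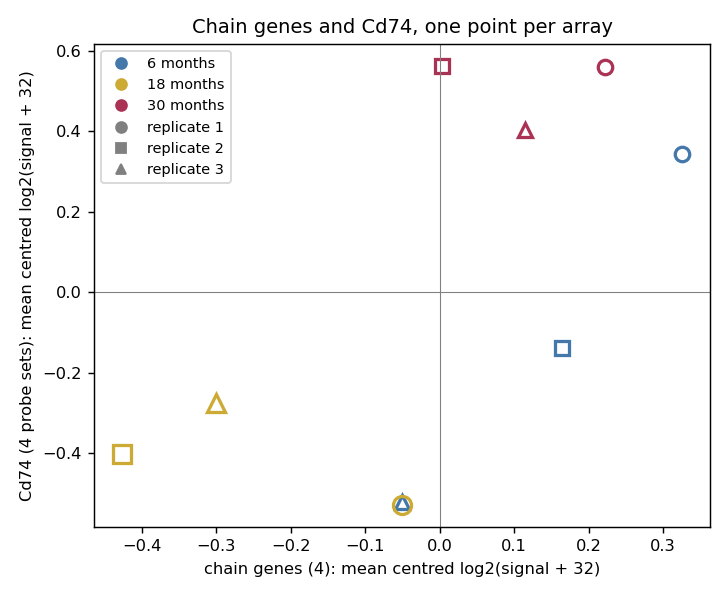
Mean of the centred log2(signal + 32) of the 4 chain genes (horizontal axis) against that of the 4 Cd74 probe sets (vertical axis), 1 point per array, with colour for age and shape for replicate. The 3 arrays of 30 months have the highest Cd74 values, 0.40 to 0.56, while replicate 1 of 6 months lies farthest right, at 0.33; replicate 3 of 6 months and replicate 1 of 18 months nearly coincide below the centre.

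Other genes of the pathway were taken from 3 lists of processing, transcription and class I genes, of which 45 of 62 genes were on the array and 38 were tested. In limma 0 of 38 passed an adjusted p of 0.05 at 30 against 6 months, 0 at 18 against 6 months and 0 at 30 against 18 months. Unadjusted p-values under 0.05 numbered 3, 3 and 2 of 38, beside 12.9%, 8.62% and 3.20% of all tested probe sets. In the processing list, 7 of 16 tested genes were higher and 9 lower at 30 than at 6 months, with a median of -0.04. Its strongest genes were the protease inhibitor *Cst3* (log2 difference -0.13), the endosomal membrane genes *Cd63* (0.22) and *Lamp1* (0.23), and the protease *Ctsd* (0.20). *Ctss*, the protease that trims the invariant chain, averaged 695 ± 176 at 30 months and 661 ± 24.2 at 6 months (SD, n = 3 each), and *RT1-DOa*, a modulator of DM, had a log2 difference of -0.09; both were named after their values were seen.

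In the transcription list 4 of 9 tested genes were higher and 5 lower at 30 than at 6 months, with a median of -0.07. *Nfyc* and *Nfyb*, subunits of the factor that binds the Y box letters shown above, had log2 differences of -0.07 and -0.27. *Irf1*, an interferon-induced factor, had 0.33 and the kinase gene *Jak1* 0.19. The interferon-γ receptor gene *Ifngr1*, named after its values were seen, read 136, 139.6 and 118.4 at 30 months, against 87.7, 75.2 and 103.8 at 6 months, and was not past the threshold (log2 difference 0.44, limma adjusted p = 0.323). *Ciita* was not analysed here.

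In the class I list 10 of 13 tested genes were higher at 30 than at 6 months, with a median of 0.22, and 10 of 13 were higher at 18 months, with a median of 0.14. The class II median at 18 against 6 months was -0.28. At 30 against 18 months 12 of the 13 class I genes were higher, beside 45.9% of all tested probe sets. Their median was 0.18, and the class II median 0.31. In the processing and transcription lists 7 of 16 and 6 of 9 were higher in that comparison, with medians of -0.01 and 0.15. The differences between the lists were not tested. The strongest class I genes were the heavy chain gene *RT1-CE16* (0.51 at 30 against 6 months), *Psme1* (-0.02), *B2m* (0.22), which encodes the light chain, and *Calr* (0.29). In GRCr8 the order along chromosome 20 puts *RT1-DOb*, *Tap2*, *Psmb8*, *Tap1* and *Psmb9* between *RT1-Bb* and *RT1-DMb*, whereas *Cd74* lies on chromosome 18. Of these neighbours, named for their place, the immunoproteasome gene *Psmb9* read 196.4, 129.8 and 117.8 at 30 months, against 83.1, 84.7 and 85.7 at 6 months. It was not past the threshold (log2 difference 0.60, limma adjusted p = 0.250), but met the fold rule. The others had log2 differences at 30 against 6 months of 0.63 (SE 0.37) in *Psmb8*, 0.22 (SE 0.13) in *Tap1* and -0.04 (SE 0.15) in *Tap2*. In each of these the ages overlapped, and *Psmb8* read 198.2, 140.7 and 42.8 at 6 months. *RT1-DOb* was under the filter.

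Markers of cells that carry class II were thinly covered. Of 21 macrophage and other myeloid genes 9 were on the array, and their summed signal was 1754 to 2020 at 6 months, 1467 to 1836 at 18 months and 1830 to 2243 at 30 months, overlapping between ages. Of the 5 tested, 0 passed the limma threshold in any comparison. An unadjusted limma p under 0.05 was reached by 1, 0 and 1 at 30 against 6, 18 against 6 and 30 against 18 months. The shares of all tested probe sets were 12.9%, 8.62% and 3.20%. At 30 against 18 months 2 of the 5 were higher and 3 lower, and at 30 against 6 months 4 were higher and 1 lower. *Lyz2*, a lysozyme gene of macrophages, read 889.8, 676.6 and 641.9 at 30 months, against 509.1, 411 and 587.8 at 18 months, without overlap. *Cd14* read 203.3, 149.8 and 198.9 at 30 months, against 326.9, 280.6 and 269.4 at 6 months, and its limma adjusted p was 0.299. The complement gene *C1qb*, made mainly by macrophages, averaged 541 ± 57.4 at 6 months, 444 ± 45.5 at 18 months and 565 ± 122 at 30 months (SD, n = 3 each). Its r with the class II mean was 0.80 (rho 0.82, 0.66 within ages). For *C1qc*, a gene of the same complement component, r was -0.58 (rho -0.20, -0.75 within ages). The other tested myeloid genes had r of -0.09 (*Cd14*), 0.17 (*Ptprc*) and 0.45 (*Lyz2*). None of the myeloid genes was listed at 0, though the integrin gene *Itgam*, a defining marker, read 1.8 to 5.7 on every array but replicate 2 of 6 months, where it read 25.3. The myeloid genes named here were all named after their values were seen.

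The summed myeloid signal had an r of 0.65 with the chain mean over 9 arrays (rho 0.38, 0.46 within ages). With the *Cd74* mean it was 0.48 (rho 0.58, -0.03 within ages). Without the 2 arrays farthest in myeloid signal r over arrays was 0.02 with either mean. Replicate 1 of 6 months was high in *Cd74* and the chain genes. Of its age it had the lowest myeloid sum, 1754, the highest *C1qb* signal, 593.2, and the lowest *C1qc* signal, 150. For dendritic and B cells 1 gene each was on the array, *Itgae* and *Cd79b*, with log2 differences of -0.29 and -0.36 at 30 against 6 months. Of 12 T and NK cell genes 11 were on the array, with sums of 819 to 933 at 6 months, 636 to 1049 at 18 months and 724 to 1216 at 30 months. The T and NK cell sum had an r of 0.61 with the chain mean (rho 0.58, 0.77 within ages, 0.22 without its 2 farthest arrays). The class I sum had 0.18 (0.79 within ages, -0.10 without 2 arrays). The endothelial sum had an r of 0.36 with the chain mean (rho 0.53, 0.83 within ages, 0.22 without 2 arrays). Between pools of an age several summed signals thus varied with the chain genes. Without 2 arrays each, however, r of these sums with the chain mean over arrays was only -0.10 to 0.22. With the *Cd74* mean, r within ages was 0.13 for the T and NK cell sum, 0.21 for class I and 0.52 for the endothelial sum. The neutrophil and mast cell sum (5 of 6 genes) was 364 to 491, 292 to 469 and 231 to 445, and the endothelial sum (3 of 6 genes) 800.1 to 1051, 798 to 1046 and 818 to 867, at 6, 18 and 30 months. Their part in the class II differences was not tested.

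The genes whose course over the 9 arrays was most like the class II mean were looked for among 3156 other genes. By r they were *Racgap1* (0.89), a regulator of cell division, *Ube2g2* (0.88), a ubiquitin-conjugating enzyme gene, *Lipe* (0.87), the hormone-sensitive lipase gene, *Gnb1* (0.86), a G protein β subunit gene, and *Mybph* (0.86), a myosin-binding protein gene. Their rho was 0.75 to 0.92. Within ages r was 0.58 to 0.95, and without the 2 farthest arrays 0.78 to 0.96. *Lipe*, for example, averaged 276 ± 42.7 at 6 months, 210 ± 16.8 at 18 months and 335 ± 57.3 at 30 months (SD, n = 3 each). Other probe sets of *Lipe* and *Mybph* had r of 0.61 and 0.77, and those of *Gnb1* -0.04 and 0.43. Of 4326 probe sets compared, 13 had an r over 0.8, and none of these 5 genes belongs to the antigen presentation lists.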

How the data were processed

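For each age (6, 18 and 30 months), 3 Affymetrix Rat Genome U34 chips, 9 in all, were hybridised with posterior cricoarytenoid RNA, each from 4 rats. The values are signal intensity on a linear scale, which the authors computed with Affymetrix Microarray Suite 5.0, per the series' design text; detection calls were not used here. The label field lists both cyanine dyes, but the design text describes a single streptavidin stain, so the arrays were treated as having 1 channel. The authors' scaling was kept. Of 8799 probe sets 59 controls were left out. Gene names came from the platform annotation, with 1 symbol for 7006 probe sets, several for 308 and none for 1426, updated through the GRCr8 table with 0 symbols changed.

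After adding 32 and taking log2, the 60% of probe sets with the highest means (5244 of 8740) were fitted by lmFit and eBayes of limma 3.58.1 (R 4.3.3; 6 residual and 3.69 prior degrees of freedom), after a test on simulated data, with Benjamini-Hochberg adjustment over all of them at 0.05. Differences and SEs of weaker probe sets came from a fit without the filter. P-values measure the spread between pools. Members and lists were chosen with earlier results of these data known, so no p-value is printed for a member and counts of calls among members are description only; an exact permutation test of 3 against 3 arrays was not used. The probe set with the highest mean log2 stands for its gene. From each list the rule named genes past the threshold, or else the 4 strongest; the 5 most alike genes were those with the highest Pearson r with the mean centred class II value, and others are marked as named after their values were seen. Alternatives were other pseudocounts (8, 64), no filter, the upper 40%, quantile normalization, replicate number as a block, each array left out, averaged probe sets and a fold rule of 1.7. Replicate numbers recur across ages with no stated link. Deviations from age means correlated at -0.02 to 0.26 for same-numbered arrays, over 0.1 in 4 of 9 pairs. For arrays of different numbers the range was -0.21 to 0.15. The numbers were not taken as pairing the arrays, but a link between same-numbered arrays is not excluded. With the number as a block both X14254cds_at calls ended.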

Additional observations from a re-analysis of the deposited data

How the results depend on the processing

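The *Cd74* call of X14254cds_at at 30 against 6 months ended without filtering, with the upper 40% of probe sets (which leaves this weak probe set out) and with replicate number as a replicate block, with 0 class II calls each. With 1 array left out the count was 0 to 1. At 30 against 18 months it was 0 with the upper 40%, a pseudocount of 64 and the replicate block, 0 to 1 with 1 array left out, and 3 under the fold rule. The fold rule also called 1 pathway gene at 30 against 6 months, *Psmb9*, against 0 in limma. The block changed no call among the pathway genes or at 18 against 6 months. The log2 difference of X14254cds_at was 0.83 with it, a value that a block over balanced arrays cannot change. An array's closest match among the 3 arrays of another age had its own number in 13 of 18 cases. A link between same-numbered arrays is thus not excluded, and the main fit does not allow for one. The median of the class II genes at 18 against 6 months moved to -0.16 when all probe sets of a gene were averaged. It was -0.24 after quantile normalization. With 1 array left out the medians ran from -0.09 to 0.10 at 30 against 6 months, -0.37 to -0.20 at 18 against 6 months and 0.22 to 0.39 at 30 against 18 months. The sign at 30 against 6 months thus changed with the array left out. Differences of single class II probe sets at 30 against 6 months were recomputed 274 times. Of these, 261 kept within the spread between pools or kept their call. Part of the 261 was fixed in advance. Leaving out an 18-month array or adding the replicate block cannot change a difference of 30 against 6 months. A further 3 moved (all of the near-background M36151cds_i_at), and 10 lost the *Cd74* call. Of the 274, 19 in 11 of the 21 probe sets changed sign, with 0 of these in *Cd74*; none of the 11 was past the threshold. Weak signals and 3 pools per age limit what can be seen.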
